A study of Mus musculus with 6 samples.

Results

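H3K27ac was examined at 6 genes that mark the formative and primed states of pluripotency in the mouse, Otx2, Pou3f1, Fgf5, Zic2, Zic5 and Foxd3. For each gene, all deposited H3K27ac peaks that overlapped the gene body or the 20 kb on either side (GENCODE vM21, GRCm38) were taken. This gave 14 distinct peaks of the 31131 in the deposited tables, and all 14 were among the 26457 peaks with at least 0.5 RPKM in either condition, where RPKM scales the reads in a peak by peak length and by total reads. Of the 6 genes, 4 had a peak and 2, Pou3f1 and Fgf5, had none.

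The study used chromatin immunoprecipitation sequencing (ChIP-seq) for histone H3 acetylated at lysine 27 in O4AID ESCs, which are embryonic stem cells of strain 129SV. Both groups carry the genotype Oct4-/-, TetOFF Oct4, CAG Oct4AID and CAG Tir1. The wild-type Oct4 transgene was kept off with doxycycline, so that OCT4 came only from the degron-tagged protein under the CAG promoter, and the cells grew in N2B27 medium with PD03, Chiron and mLIF. Libraries came from 3 immunoprecipitations (IPs) of untreated cells and 3 of cells given 500 µM indole-3-acetic acid (IAA), an auxin that triggers destruction of the tagged protein through Tir1, for 1.5 h. Nothing in the sources used here says that the IPs came from separate cultures, so the p-values can at most measure the spread between IPs, which may be technical. The line was made from ZHBTc4 ESCs by transfection of both CAG transgenes, and no IAA-treated line without degron-tagged OCT4 was analysed here. The paper gave IAA to ESCs that carried Tir1 and eGFP with the degron. By ChIP with qPCR it reports unchanged acetylation in them at pluripotency enhancers. It attributes the loss at those enhancers to OCT4 depletion. The genes studied here were not part of that control. At these genes, an effect of IAA itself and the loss of OCT4 cannot be told apart from these libraries alone. The comparison asks how acetylation at these genes changes shortly after OCT4 is removed.

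Naive pluripotent cells correspond to the epiblast before implantation, and formative and primed cells to the epiblast after it. Passage from one to the other involves a change of transcription factors and a change in the enhancers that OCT4 occupies. Otx2 encodes a homeodomain factor that drives exit from the naive state and later patterns the head. Pou3f1 encodes OCT6, a POU-domain relative of OCT4, and Fgf5 encodes a secreted fibroblast growth factor used as a marker of the post-implantation epiblast. Zic2 and Zic5 encode zinc finger factors and lie side by side in opposite orientation, and Foxd3 encodes a forkhead factor of the epiblast and neural crest. Acetylation of H3 at lysine 27 marks active promoters and enhancers.

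The libraries held 31634480 to 39547452 reads, recovered from the steps between RPKM values. Peaks took 6.63% to 7.12% of the reads of uninduced cells and 4.05% to 5.15% of those after IAA. The median peak above 0.5 RPKM was lower after IAA by -0.55 on the log2 scale, and for the member peaks the change is given on the deposited scale and relative to that median peak. RPKM divides by all reads, and no spike-in or input library was used here, so a global change of acetylation and a change of IP efficiency between the groups cannot be told apart. Of the naive pluripotency factors fixed as markers of these cells, 10 of 10 had a peak in their window, with a mean in uninduced cells of 2.10 to 6.90 RPKM. Of 6 trophectoderm markers 3 had a peak (Gata3, Tfap2c and Hand1, at 1.99 to 3.01 RPKM, with no peak at Cdx2, Elf5 or Krt7), of 6 primitive endoderm markers 1 had one (Gata6, at 2.13 RPKM), and of 6 neural markers 3 had one (Pax6, Sox1 and Nes, at 1.62 to 1.88 RPKM).

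The sequences below show the kinds of site that carried acetylation, and a start site with no called peak near it. The first pair are the 250 bases before the annotated starts of Foxd3 (GRCm38, chr4:99656049-99656298, plus strand), where a peak began at position 99656218, after most of the stretch, and of Fgf5 (chr5:98253934-98254183, plus strand), where no peak was near. Both are taken from the RefSeq promoter table for GRCm38.p6, and capitals mark CpG dinucleotides.
Foxd3 upstream: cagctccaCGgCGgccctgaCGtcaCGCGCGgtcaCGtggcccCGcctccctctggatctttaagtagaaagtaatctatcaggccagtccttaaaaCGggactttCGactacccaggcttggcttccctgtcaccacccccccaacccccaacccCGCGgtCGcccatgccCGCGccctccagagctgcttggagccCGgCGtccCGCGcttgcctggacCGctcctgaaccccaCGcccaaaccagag
Fgf5 upstream: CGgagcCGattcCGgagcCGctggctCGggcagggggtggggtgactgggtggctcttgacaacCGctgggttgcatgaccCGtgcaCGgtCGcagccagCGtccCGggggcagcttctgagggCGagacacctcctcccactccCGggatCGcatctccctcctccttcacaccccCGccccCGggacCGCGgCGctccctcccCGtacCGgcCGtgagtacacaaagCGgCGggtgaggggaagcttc
Both were rich in CpG. The Foxd3 stretch had a GC content of 65.6% with 21 CpG and the Fgf5 stretch 70.8% with 24 CpG, against medians of 52.4% and 6 CpG over all upstream stretches of this length in the table. A start rich in CpG was therefore present both with and without a peak. Promoter entries were found for 4 of the 6 genes.

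The next 4 stretches come from inside peaks (GRCm38, plus strand, capitals mark CpG). They are the central 300 bases of the marked Otx2 peak described below as Otx2 peak 2 (chr14:48654706-48655005), the central 300 bases of the peak just upstream of the Zic2 start, Zic5-Zic2 peak 3 (chr14:122474839-122475138), the central 300 bases of the marked peak downstream of Foxd3, Foxd3 peak 6 (chr4:99669345-99669644), and the 79 coding bases of Foxd3 peak 4, the member peak with the largest fall (chr4:99657953-99658031).
Otx2 peak 2: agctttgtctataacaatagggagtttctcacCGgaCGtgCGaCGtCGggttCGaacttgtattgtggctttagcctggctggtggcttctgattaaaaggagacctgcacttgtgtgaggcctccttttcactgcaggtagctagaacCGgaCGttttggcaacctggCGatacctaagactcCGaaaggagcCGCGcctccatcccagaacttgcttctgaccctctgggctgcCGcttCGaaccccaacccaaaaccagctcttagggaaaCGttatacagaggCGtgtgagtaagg
Zic5-Zic2 peak 3: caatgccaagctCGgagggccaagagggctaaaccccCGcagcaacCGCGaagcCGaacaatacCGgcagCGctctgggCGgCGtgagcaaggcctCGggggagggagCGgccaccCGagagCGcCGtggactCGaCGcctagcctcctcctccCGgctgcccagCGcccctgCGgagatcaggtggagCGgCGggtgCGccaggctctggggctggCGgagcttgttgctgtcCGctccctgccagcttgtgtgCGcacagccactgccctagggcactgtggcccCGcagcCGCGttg
Foxd3 peak 6: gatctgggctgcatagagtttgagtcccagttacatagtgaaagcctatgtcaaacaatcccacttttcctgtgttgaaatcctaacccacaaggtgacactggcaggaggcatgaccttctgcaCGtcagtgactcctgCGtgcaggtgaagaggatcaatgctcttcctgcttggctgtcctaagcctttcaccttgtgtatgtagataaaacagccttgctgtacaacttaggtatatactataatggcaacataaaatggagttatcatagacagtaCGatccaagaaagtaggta
Foxd3 peak 4 coding part: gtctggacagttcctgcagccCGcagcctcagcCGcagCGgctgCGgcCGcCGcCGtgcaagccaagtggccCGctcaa
The Zic2 stretch held 28 CpG at a GC content of 71.0%, and the marked Foxd3 stretch held 3 CpG at 44.3%. The marked Otx2 stretch lay between them, with 16 CpG at 53.0%. The coding stretch of Foxd3 held 8 CpG in its 79 bases.

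Over whole peaks, the 14 members had a median GC content of 59.7%, against 52.9% over all peaks above 0.5 RPKM. The 5 members that the authors marked as lying within 1 kb of an OCT4 peak of published ChIP-seq data had a median of 44.8%, and the 9 without that mark a median of 65.2%. Among all peaks the corresponding medians were 48.7% with the mark and 54.0% without it. The octamer ATGCAAAT, the wider form ATGCNAAT, which includes the octamer, and the SOX-OCT junction TTGTNATGC were searched on both strands. No member peak held any of these motifs, and 3.01%, 6.08% and 1.62% of all peaks above 0.5 RPKM did. At shares this low, 14 peaks can all lack a motif without differing from other peaks. The members were also shorter, with a median length of 574.5 bp against 728 bp. Absence says only that these exact letters are not in the peak windows. The window of a marked peak need not contain the OCT4 site itself, which may lie up to 1 kb away.

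All 14 member peaks were lower after IAA. They had 1.62 to 3.21 RPKM on average in uninduced cells and 0.820 to 1.84 RPKM after IAA, and their log2 changes ran from -1.35 to -0.66 with a median of -0.84, against -0.55 over all peaks (quartiles -0.70 and -0.41). All 14 passed limma's test with Benjamini-Hochberg adjustment, the largest adjusted p being 0.0258, where 68.2% of all peaks above 0.5 RPKM were called lower. The authors called peaks on the uninduced IPs alone, which favours lower values after IAA at members and all other peaks. Such a bias can be larger at weaker peaks, and its size was not tested. In uninduced cells the members had a median of 2.08 RPKM, against 2.44 over all peaks above 0.5 RPKM. At 12 of the 14 the highest IAA value was below the lowest uninduced one, as at 71.2% of all peaks above 0.5 RPKM. Peaks held 8 to 137 reads per library, so that counting error alone was 35.4% to 8.54% of a value.

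**Figure D1:**
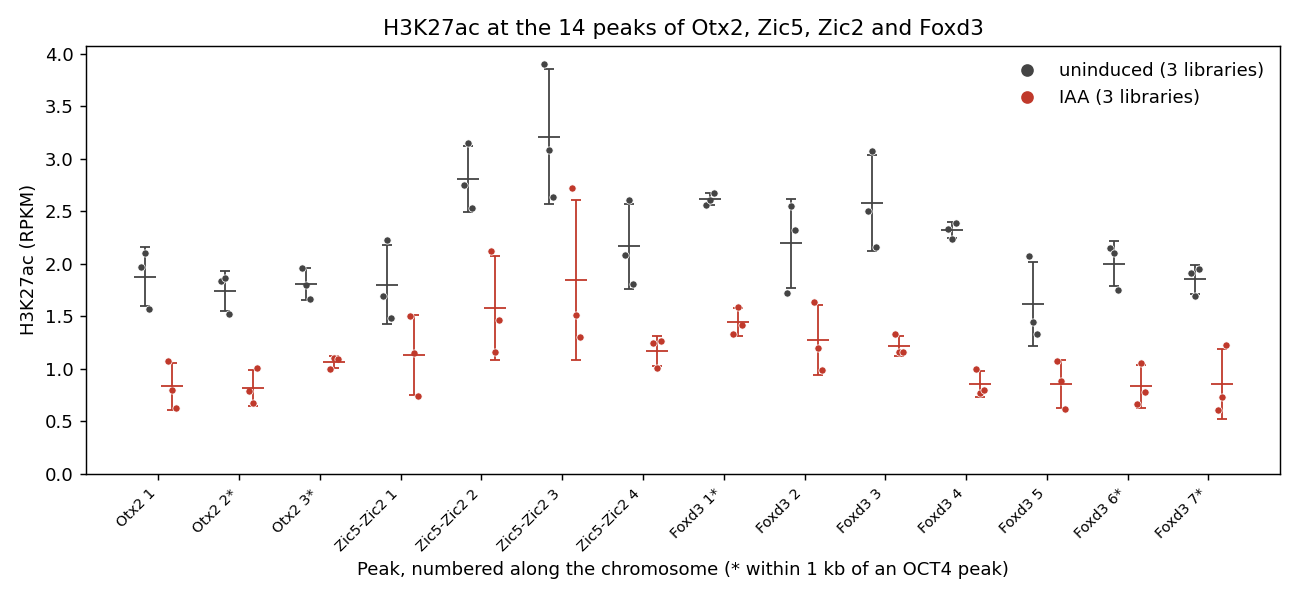
H3K27ac in RPKM (vertical axis) in each library at the 14 member peaks, numbered along the chromosome within each locus. Points are the 3 uninduced (gray) and 3 IAA (red) libraries, dashes are means and bars are the SD, and stars mark peaks within 1 kb of an OCT4 peak. The groups overlap only at Zic5-Zic2 peaks 1 and 3, and means fall from 1.62 to 3.21 RPKM in uninduced cells to 0.820 to 1.84 RPKM after IAA.

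Measured against the median peak of each library, the 14 members were still all on the lower side, with relative log2 changes of -0.80 to -0.11 and a median of -0.28, where 49.1% of all peaks were below 0. In this fit limma called 1 of the 14 lower after adjustment, against 1.97% of all peaks. An unadjusted p under 0.05 was found at 4, but the share of all peaks at that level was not counted, so nothing is read from it. The members were chosen with earlier results of these data known, and no test over the 14 peaks together was made.

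Foxd3 (ENSMUSG00000067261, chr4:99656299-99658622, plus strand) had 7 peaks, from 18540 bp before its start to 14274 bp after it, and 3 of them carried the OCT4 mark. As a mean over the window, weighted by peak length, H3K27ac at Foxd3 was 2.23, 2.23 and 2.11 RPKM without IAA and 1.06, 1.12 and 1.08 RPKM with it. The groups were far apart, and the spread within each was small. The mean fell by 50.5%, from 2.19 ± 0.0671 (SD, n = 3) to 1.09 ± 0.0319 RPKM (SD, n = 3).

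Foxd3 peak 3 (chr4:99656218-99656815) covered the annotated start, the 5′ untranslated region and part of the coding sequence, without the OCT4 mark. Its values were 2.50, 3.07 and 2.16 RPKM in uninduced cells and 1.33, 1.16 and 1.16 RPKM after IAA, with no overlap. The log2 change was -1.01 (SE 0.195, limma adjusted p = 0.000779), and relative to the median peak it was -0.46 (SE 0.165, adjusted p = 0.198).

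Foxd3 peak 4 (chr4:99657953-99658278) lay over the end of the coding sequence and the 3′ untranslated region, also without the mark. It held 2.33, 2.24 and 2.38 RPKM before IAA and 0.992, 0.767 and 0.799 RPKM after it, a loss of 63.2%. No member peak fell more, and only 0.828% of all peaks above 0.5 RPKM did. The log2 change was -1.35 (SE 0.206, limma adjusted p = 0.000134). It was the only member called lower relative to the median peak, by -0.80 (SE 0.173, limma adjusted p = 0.0320). That call was lost when any of 5 of the 6 libraries was left out (limma adjusted p from 0.0627 to 0.169, with a relative change of -0.83 to -0.72), and was kept only without IAA replicate 3. The peak rested on 9 to 30 reads per library.

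Downstream of the gene, Foxd3 peaks 6 and 7 (chr4:99669141-99669848 and chr4:99670573-99671488) lay in an intron of the antisense gene Gm12682 and carried the mark. Peak 6 went from 2.15, 2.10 and 1.75 RPKM to 0.663, 1.06 and 0.775 RPKM, and peak 7 from 1.91, 1.69 and 1.95 RPKM to 0.609, 0.727 and 1.23 RPKM. Neither pair of groups overlapped, although IAA replicate 3 of peak 7 stood closer to the uninduced values than the others. The log2 changes were -1.19 (SE 0.224) and -1.08 (SE 0.243). Relative to the median peak, peak 6 changed by -0.63 (limma adjusted p = 0.172) and peak 7 by -0.53 (limma adjusted p = 0.434), and without IAA replicate 3 the latter was -0.88 with an adjusted p of 0.0450 from limma. Repeats (soft-masked bases) made up 52.4% of peak 7.

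The third marked peak, Foxd3 peak 1 (chr4:99636435-99637759, intergenic), was the longest member and the most deeply covered, with 60 to 137 reads per library. Its values were tight, at 2.56, 2.60 and 2.67 RPKM in uninduced cells and 1.33, 1.59 and 1.42 RPKM after IAA, and did not overlap. The log2 change was -0.81 (SE 0.179, limma adjusted p = 0.00188), and -0.26 relative to the median peak (limma adjusted p = 0.505). The remaining Foxd3 peaks, 2 and 5, overlapped exons of the noncoding genes Gm12688 and Gm12682 and changed by -0.75 and -0.85, each passing limma's test. Their relative changes were -0.20 and -0.30, with limma adjusted p of 0.728 and 0.609. Peak 5 lost its call without uninduced replicate 1 (limma adjusted p = 0.0622). Which gene the acetylation at these noncoding loci serves cannot be told from the tables.

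**Figure D2:**
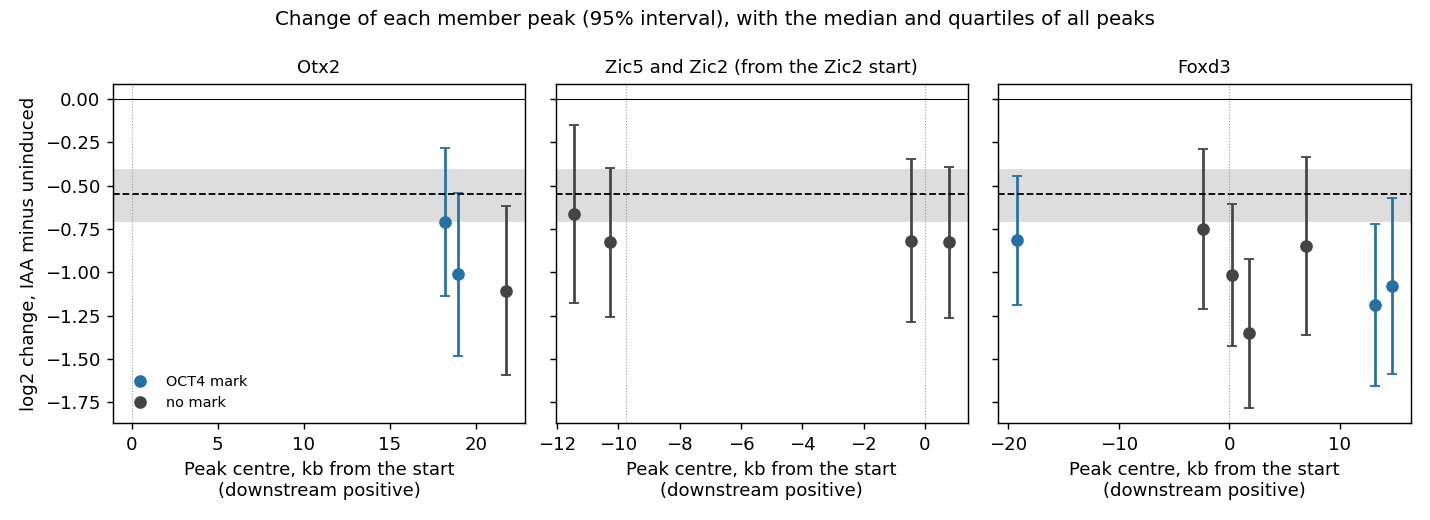
Log2 change of H3K27ac after IAA (vertical axis) against the distance of the peak centre from the annotated start in kb (horizontal axis, downstream positive) for Otx2, for Zic5 and Zic2 (from the Zic2 start, with the Zic5 start as the left dotted line) and for Foxd3. Bars are limma 95% intervals, blue is the OCT4 mark, the dashed line is the median of all peaks (-0.55) and the gray band their quartiles. All 14 intervals lie below 0, and the lowest point is Foxd3 peak 4 at -1.35.

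Otx2 (ENSMUSG00000021848, chr14:48657677-48673819, minus strand) had 3 peaks, and all 3 were intergenic, 1824 to 5196 bp beyond the 3′ end of the gene. No peak lay on any of its 10 annotated transcript starts, the nearest being 6079 bp away. The length-weighted mean over the window was 1.94, 1.96 and 1.59 RPKM in uninduced cells and 0.990, 0.858 and 0.845 RPKM after IAA. The groups did not overlap, and the mean fell by 50.8%, from 1.83 ± 0.209 (SD, n = 3) to 0.898 ± 0.0804 RPKM (SD, n = 3).

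Otx2 peak 1 (chr14:48651607-48652481), the farthest from the gene and without the OCT4 mark, went from 1.97, 2.10 and 1.57 RPKM to 1.07, 0.793 and 0.627 RPKM. This peak also lay within 1 kb of the start of Gm23469. Its log2 change of -1.10 (SE 0.233, limma adjusted p = 0.00146) was the largest at this gene. Otx2 peak 2 (chr14:48654669-48655042), with the mark, went from 1.83, 1.86 and 1.52 RPKM to 0.786, 0.669 and 1.01 RPKM, a log2 change of -1.01 (SE 0.225). Otx2 peak 3 (chr14:48655324-48655853), also marked and closest to the gene, went from 1.96, 1.79 and 1.66 RPKM to 0.997, 1.10 and 1.09 RPKM, a log2 change of -0.71 (SE 0.205). At none of the 3 did the groups overlap. The larger fall thus lay at the peak without the mark, but the 95% intervals of the 3 changes overlapped and their difference was not tested. Relative to the median peak the changes were -0.55, -0.46 and -0.16, with limma adjusted p of 0.194, 0.394 and 0.786.

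Zic5 (ENSMUSG00000041703, chr14:122456795-122465677, minus strand) and Zic2 (ENSMUSG00000061524, chr14:122475435-122479852, plus strand) start 9758 bp apart, and the same 4 peaks fall in both windows. Their gene values are therefore one measurement and not 2. None of the 4 peaks had the OCT4 mark. The length-weighted mean was 2.57, 2.79 and 2.12 RPKM in uninduced cells and 1.81, 1.17 and 1.24 RPKM after IAA, without overlap, and it fell by 43.5%, from 2.49 ± 0.342 (SD, n = 3) to 1.41 ± 0.352 RPKM (SD, n = 3). IAA replicate 1 stood above the other IAA libraries.

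Zic5-Zic2 peak 3 (chr14:122474778-122475199), just before the Zic2 start and over an exon of the noncoding gene 2610035F20Rik, had the highest H3K27ac of all members. It went from 3.90, 3.08 and 2.64 RPKM to 2.72, 1.51 and 1.30 RPKM, so that IAA replicate 1 was above uninduced replicate 3 and the groups overlapped. The log2 change was -0.82 (SE 0.226, limma adjusted p = 0.00674). Peak 4 (chr14:122475826-122476627), in the coding first exon of Zic2, went from 2.08, 2.60 and 1.81 RPKM to 1.24, 1.00 and 1.26 RPKM without overlap, a log2 change of -0.83 (SE 0.208).

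Peak 2 (chr14:122464892-122465444), over the 5′ end of Zic5, went from 2.75, 3.15 and 2.53 RPKM to 2.12, 1.15 and 1.46 RPKM, again without overlap, and changed by -0.83 (SE 0.207). Peak 1 (chr14:122463841-122464154), within the Zic5 coding sequence, was the shortest member. Its values of 1.70, 2.22 and 1.49 RPKM and 1.50, 1.15 and 0.737 RPKM overlapped, since IAA replicate 1 was above uninduced replicate 3. It had the smallest change, -0.66 (SE 0.246, limma adjusted p = 0.0258), and this call was lost without uninduced replicate 1, uninduced replicate 2 or IAA replicate 3 (changes of -0.69, -0.51 and -0.41, with limma adjusted p of 0.0547, 0.117 and 0.120). With no threshold on RPKM the call was also lost (limma adjusted p = 0.0588). Relative to the median peak the 4 changed by -0.27 to -0.11, with limma adjusted p from 0.567 to 0.890. These relative values moved with single libraries. With 1 library left out, peak 2 was lowest at -0.42, when IAA replicate 1 was dropped, and nearest 0 at -0.067, when IAA replicate 2 was dropped. The value of peak 3 ran from -0.49 (without IAA replicate 1) to -0.13 (without uninduced replicate 1), and that of peak 4 from -0.42 (without IAA replicate 3) to -0.15 (without uninduced replicate 2). Peaks 2, 3 and 4 lay within 1 kb of a start of Zic5 or Zic2 and had log2 changes of -0.83, -0.82 and -0.83.

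Pou3f1 (ENSMUSG00000090125, chr4:124656807-124660655, plus strand) had no peak in its window. The nearest, 36042 bp from its start, lay over the promoter of Utp11 and went from 1.83, 2.02 and 2.33 RPKM to 1.93, 1.33 and 1.00 RPKM. The groups overlapped there. Its log2 change of -0.55 (SE 0.224, limma adjusted p = 0.0380) was close to that of the median peak, with a relative change of 0.0077. Between 20 and 50 kb from Pou3f1 there were 4 peaks, none with the OCT4 mark.

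Fgf5 (ENSMUSG00000029337, chr5:98254184-98277030, plus strand) likewise had no peak in its window, nor any within 100 kb. The nearest lay 246041 bp from its start in an intron of Antxr2, with 1 read in every library, the lowest value the tables hold. Peaks were called by the authors on reads of the uninduced IPs alone, so a site that gained acetylation only after IAA would not be listed, and a change at Pou3f1 and Fgf5 could not be measured.

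At the level of genes, limma called all 4 members with a peak lower, where 89.6% of the 14221 protein-coding genes with a peak were called lower. The log2 change was -0.95 (SE 0.187, adjusted p = 7.70e-06) for Foxd3, -0.95 (SE 0.208, adjusted p = 5.75e-05) for Otx2 and -0.80 (SE 0.166, adjusted p = 2.48e-05) for the values shared by Zic2 and Zic5, against a median of -0.52 over all genes. These SEs came from genes of like level, so the adjusted p-values do not measure the spread of a gene's own IPs. For each gene, the exact two-sided permutation test over 20 labellings gave p = 0.1, the smallest that 3 against 3 libraries allow. Relative to the median gene the changes were -0.42 (95% interval -0.71 to -0.13), -0.41 (-0.72 to -0.10) and -0.26 (-0.55 to 0.024). The last of these, for the Zic genes, was -0.36 without IAA replicate 1 and -0.15 without IAA replicate 2. In this fit limma called 0 of 4 members, against 1.53% of all genes. An unadjusted p under 0.05 was found at 2 of 4 (Foxd3 and Otx2), but the share of all genes at that level was not counted. In uninduced cells the order of levels was Zic2 and Zic5, Foxd3 and Otx2. The Zic and Foxd3 values overlapped, whereas the 3 Foxd3 values were all above the 3 Otx2 values.

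Among the members, the changes of marked peaks (-1.19 to -0.71) lay within the range of the unmarked ones (-1.35 to -0.66), and their difference was not tested. The 5 marked peaks had a median log2 change of -1.01 and the 9 unmarked peaks one of -0.83, against -0.71 over all marked and -0.52 over all unmarked peaks. The marked median was thus the lower one among the members, as it was over all peaks. However, all 5 marked members lay at Foxd3 and Otx2, so the mark and the locus cannot be told apart. At Foxd3 the marked median was the lower one, -1.08 against -0.93. At Otx2 it was the higher one, -0.86 against -1.10 at the unmarked peak. Per library, the median log2(RPKM + 0.1) of the marked members minus that of the unmarked was -0.084, -0.43 and -0.29 without IAA and -0.69, -0.11 and 0.14 with it. This difference compares levels, and its medians can rest on different peaks in each library. It therefore cannot decide whether the falls of single peaks differ by the mark. The groups overlapped, and the mean difference of levels moved by 0.047 with SDs of 0.173 and 0.423. Its direction was opposite to that of the median changes per peak. The direction turned in 3 of the 6 cases with 1 library left out and with the authors' mean columns. By position, the 7 members within 1 kb of any annotated transcript start had a median change of -0.83 and the 7 others one of -0.85, against -0.53 and -0.58 over all peaks of each kind.

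**Figure D3:**
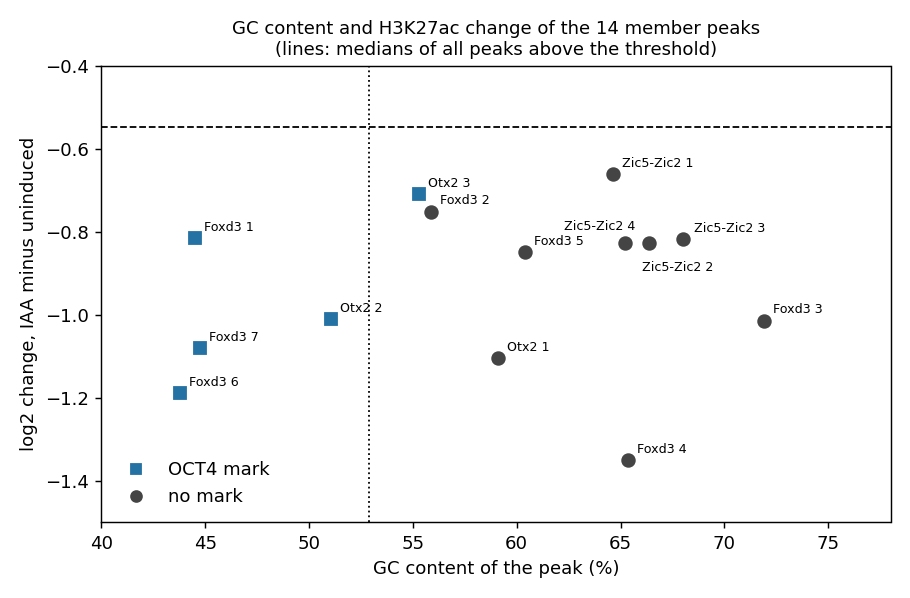
Log2 change of H3K27ac after IAA (vertical axis) against the GC content of each member peak in percent (horizontal axis), with marked peaks as blue squares and unmarked peaks as gray circles. Dotted and dashed lines are the medians of all peaks above 0.5 RPKM, 52.9% and -0.55. The 3 marked Foxd3 peaks sit near 44.8% GC, the unmarked peaks lie above the median GC content, and changes of about -1 occur on both sides.

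In a wider view, 9 more peaks lay between 20 and 50 kb from a member. Of these 5 had the OCT4 mark, against 17.6% of all peaks above 0.5 RPKM, and 8 were called lower, against 68.2%. The only peak in this zone for Otx2 (chr14:48700458-48701054, marked) lay 26639 bp upstream of the start and went from 0.976, 1.59 and 1.52 RPKM to 0.738, 0.511 and 0.533 RPKM, a log2 change of -1.06 (SE 0.256, limma adjusted p = 0.00332) and a relative one of -0.51 (limma adjusted p = 0.373). The steepest falls were at 2 neighbouring marked peaks on the far side of Zic5, singled out after their values were seen. The peak at chr14:122415363-122416373 went from 6.66, 6.42 and 6.03 RPKM to 2.58, 2.14 and 1.77 RPKM, and the peak at chr14:122416673-122417669 from 5.81, 6.41 and 6.09 RPKM to 2.15, 1.73 and 1.65 RPKM. Both stood above every member peak before IAA, and the groups were well separated. Their log2 changes were -1.53 (SE 0.165) and -1.68 (SE 0.160), and relative to the median peak they were -0.98 and -1.13 (limma adjusted p of 0.00105 and 0.000946). With the 50 kb window the Zic5 value accordingly changed by -1.15, and by -0.61 relative to the median gene (limma adjusted p = 0.00257), where the 20 kb window gave -0.26 (limma adjusted p = 0.429). The Zic2 window of 50 kb does not reach these peaks, and its value changed by -0.75. Which gene, if any, they act on was not tested.

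Of 21 other genes of the formative and primed programme, 12 had a peak in their window. Limma called 8 lower, where 89.6% of all genes were, and 0 higher, and 4 did not pass (Dnmt3a, Dnmt3b, Grhl2 and Tcf15), with a median log2 change of -0.49 and a range of -0.81 to -0.20. The largest changes were at Etv5, an ETS factor downstream of FGF signalling, at -0.81 (SE 0.146), and Utf1, a chromatin-associated factor of pluripotent cells, at -0.70 (SE 0.197). Etv5 went from 4.88, 4.91 and 4.81 RPKM to 2.88, 2.80 and 2.52 RPKM without overlap. Limma called 0 of the 12 relative to the median gene, where 1.53% of all genes were called lower. An unadjusted p under 0.05 was found at 3, a level whose share over all genes was not counted. Of these 1, Etv5, was lower (-0.28, limma adjusted p = 0.0709). The smallest were at Grhl2, a regulator of epithelial genes, at -0.20 (SE 0.191, limma adjusted p = 0.308), and Dnmt3a, a de novo DNA methyltransferase, at -0.25 (SE 0.177, limma adjusted p = 0.169). No peak was found at Lef1, Sox3, Sox4, Cdh2, Fst, T, Eomes, Mixl1 or Foxa2.

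For comparison, the 10 naive pluripotency factors were all called lower, where 89.6% of all genes were. Their median was -0.98, against -0.52 over all genes, and 6 of 10 were called lower relative to the median gene, against 1.53% of all genes. The markers of other cell types with a peak were also all called lower, again where 89.6% of all genes were. The 3 trophectoderm genes had a median of -0.56, the 3 neural genes one of -0.59 and Gata6 a change of -0.49, all near the -0.52 over all genes. Of these markers, limma called 1 lower relative to the median gene, against 1.53% of all genes. It was Tfap2c, an AP-2 factor, which changed by -0.96 and by -0.43 in relative terms (limma adjusted p = 0.0330). Its change was thus as large as those of Foxd3 and Otx2. The lists were not tested against each other. Among protein-coding genes that share no peak with them, those with values most like each member over the 6 libraries, by the root mean square difference of log2(RPKM + 0.1), were Cul3 (0.0707) and Arhgef3 (0.0829) for Foxd3, Rtn1 (0.0984) and Syndig1 (0.106) for Otx2, and Mylk2 (0.0952) and Mindy3 (0.0974) for Zic2 and Zic5.

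**Figure D4:**
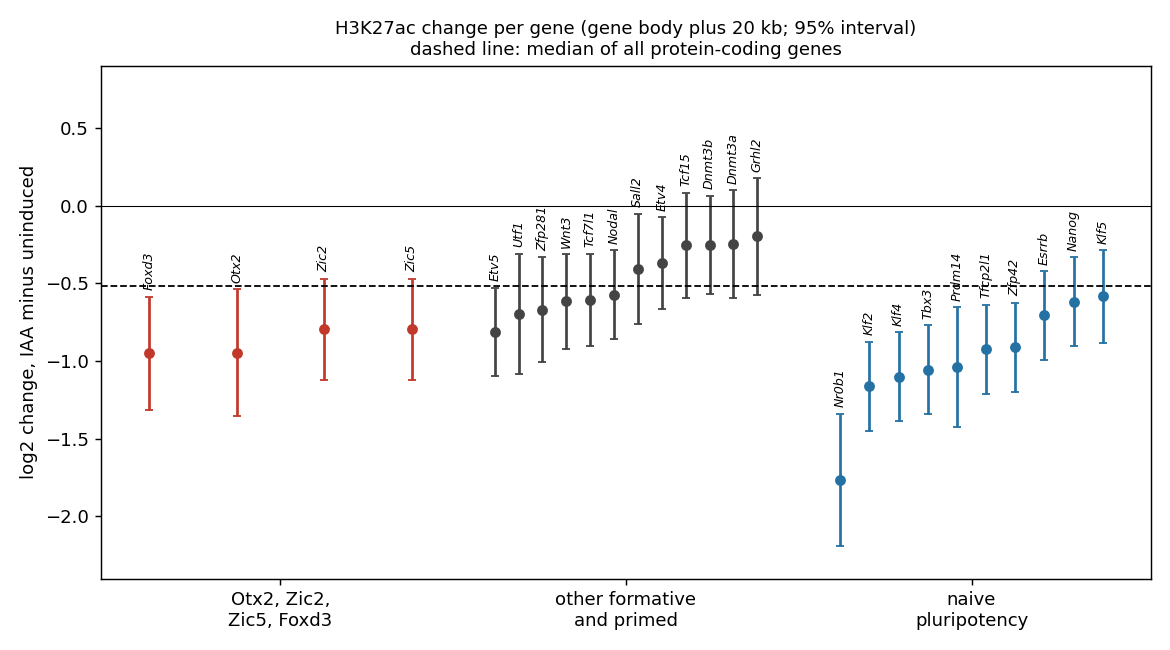
Log2 change of H3K27ac per gene after IAA (vertical axis) for the 4 members with a peak (red), 12 other formative and primed genes (gray) and 10 naive pluripotency factors (blue), with limma 95% intervals. The dashed line is the median of all protein-coding genes, -0.52. The members lie between -0.95 and -0.80, the other formative and primed genes between -0.81 and -0.20, and the naive factors have a median of -0.98.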

How the data were processed

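H3K27ac ChIP-seq was analysed in 6 libraries, grouped by the treatment in the sample labels. Per the labels and methods, the authors used Bowtie 2 2.3.4.3 for alignment to GRCm38 (mm10), SAMtools for deduplication, MACS2 for peaks of the pooled uninduced IPs and DiffBind for the deposited RPKM values of each peak and library. Versions other than that of Bowtie 2 are not given in the sources used here. In the files, each pooled value is the mean of the 3 libraries. Every RPKM value is a whole multiple of 1 read within 0.01 reads, from which depth was recovered.

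Peaks with at least 0.5 RPKM in either pooled column were tested on log2(RPKM + 0.1), which understates changes of low peaks, with limma 3.58.1 in R 4.3.3 (trend and robust, two-sided, Benjamini-Hochberg over all 26457 peaks or 14221 genes, threshold 0.05). A gene was given the length-weighted mean RPKM over peaks in its window. On the deposited scale the gene fit took its spread from genes of like level, not from a gene's own libraries. The fit was repeated after centring each library on its median. The scripts were tested on simulated data. The pseudocount, threshold, scaling, window, replicate block and each library were varied. The genes named are the 6 members, all peaks in their windows, the 2 largest and 2 smallest changes in the list of other formative and primed genes, and the most similar genes; the members and lists were chosen with earlier results of these data known. 1 gene of that list is not reported here.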

Additional observations from a re-analysis of the deposited data

How the results depend on the processing

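On the deposited scale the 14 member peaks kept their direction in all 210 values under other settings and their call in 179. The count of peaks called lower was 1 after quantile normalization, where 447 of all 26457 peaks were. It was also 1 after centring on the median, where 520 of all peaks were. With 1 library left out it was 12 to 14, where 10378 to 19611 of all peaks were called lower. Per gene, the 4 calls became 0 after quantile normalization and 0 after centring, where 218 and 217 of all 14221 genes were called lower. They stayed at 4 under every other setting that left the 4 genes with a peak. With 1 library left out, 10206 to 13148 of all genes were called lower. Relative to the median peak the count of 1 became 0 with the replicate block, where 311 of all peaks were called lower. It was 0 to 2 with 1 library left out, where 99 to 692 of all peaks were. Zic5-Zic2 peak 1 changed sign without uninduced replicate 2 (0.038) and without IAA replicate 3 (0.054). Its range was -0.25 to 0.054 with 1 library left out. Relative to the median gene the count of 0 became 1 with the window of 50 kb, where 346 of 16174 genes were called lower. The shift after IAA in the level difference between marked and unmarked members, 0.047, ranged from -0.13 to 0.28 with 1 library left out. It was -0.034 without uninduced replicate 2, -0.0075 without IAA replicate 2 and -0.13 without IAA replicate 3. With the authors' mean columns it was -0.17. The causes were not tested.

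The replicate numbers did not pair the libraries (correlations of -0.014, -0.091 and -0.061 for equal numbers). The replicate block left 14 member peaks and 4 genes lower, where 18898 of 26457 peaks and 12995 of 14221 genes were called lower. Limits are the 3 IPs per group, 8 to 137 reads per peak and library, and peaks called on uninduced cells alone, which favours falls.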
